A study of Mus musculus with 3 samples.

Results

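The genes described here are 40 genes of the neural lineage, chosen by name. Of these, 15 mark neural progenitors or glia and 25 mark neurons. On the array 39 were found by gene symbol, and Map2, listed there under the older name Mtap2, was found through its accession. They were read by 62 probes. A probe counted as measured if the scanner flagged it well above background in 1 genotype or both on each of the 3 arrays, which left 26 of the 40 members (8 progenitor and 18 neuron genes) among 15428 tested genes.

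RNA was taken from mouse embryoid bodies, balls of embryonic stem cells that form many cell types while floating in medium, at day 10 of culture without LIF, a cytokine that holds stem cells in self-renewal. Embryoid bodies of a wild type control (3 samples) were compared with those of the Dido3deltaCT mutant (3 samples), in which the C-terminal part of Dido3, the longest protein of the Dido1 locus, is altered. The study asks how Dido acts between self-renewal and differentiation. Each of 3 arrays carried 1 sample of each genotype, the mutant in Cy3 on arrays 1 and 3 and in Cy5 on array 2. Strain, sex and number of clones were not given in the sources used here, and the samples may be repeat cultures of 1 line per genotype. The p-values then measure only the spread between these samples, and any further difference between such lines cannot be told apart from genotype. The dyes were not swapped equally, so every mean ratio holds a part of any dye effect, and the number of arrays limits the precision.

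As background, neural tissue arises from ectoderm in which SOX transcription factors of the SoxB1 group keep cells as dividing progenitors, while homeodomain and PAX factors divide them into regions along the body axes. Proneural basic helix-loop-helix factors such as the neurogenins then start neuron formation, SOX factors of the SoxC group follow, and the young neuron builds tubulin, neurofilaments, adhesion molecules and synaptic proteins. Embryoid bodies form such cells beside mesoderm and endoderm. In RNA of whole embryoid bodies, fewer cells of a type and less RNA per cell cannot be told apart.

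Ratios are given as log2 of mutant over wild type, so a negative value is a lower level in the mutant. No member passed the test across all genes (limma with Benjamini-Hochberg adjustment, threshold 0.05) in either direction, against 0.0907% of all tested genes called lower and 0.207% called higher. Without adjustment, 7 members had a p under 0.05 as lower and 1 as higher in the mutant, which is 26.9% and 3.85% of the 26, beside 11.3% and 11.4% of all genes. The log2 ratio was below 0 on all 3 arrays for 8 members (30.8%, against 22.7% of all genes), and above 0 on all 3 for 2 members, Mapt and Snap25 (7.69%, against 21.7%). The median log2 ratio was −1.29 over the 8 measured progenitor genes and −0.72 over the 18 measured neuron genes, and 0.03 over all genes. Of the 26, 5 members were well above background throughout in wild type samples only, so their entry rested on the wild type level, and 2 in mutant samples only. Pax3, Dlx2, Fabp7 and Nefm entered through wild type and are in both counts of lower members, which therefore rest in part on how genes entered. With both genotypes required, 19 members remained, and limma gave 3 lower and 1 higher without adjustment. In that fit 2628 of 13152 genes had such a p in either direction. Taken over both directions, the share of the 19 members was close to that of all genes. The all-gene share of that fit was not split by direction. The medians were then −0.94 over 4 progenitor and −0.44 over 15 neuron genes. All these counts and medians describe the measured genes and not all 40.

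**Figure D1:**
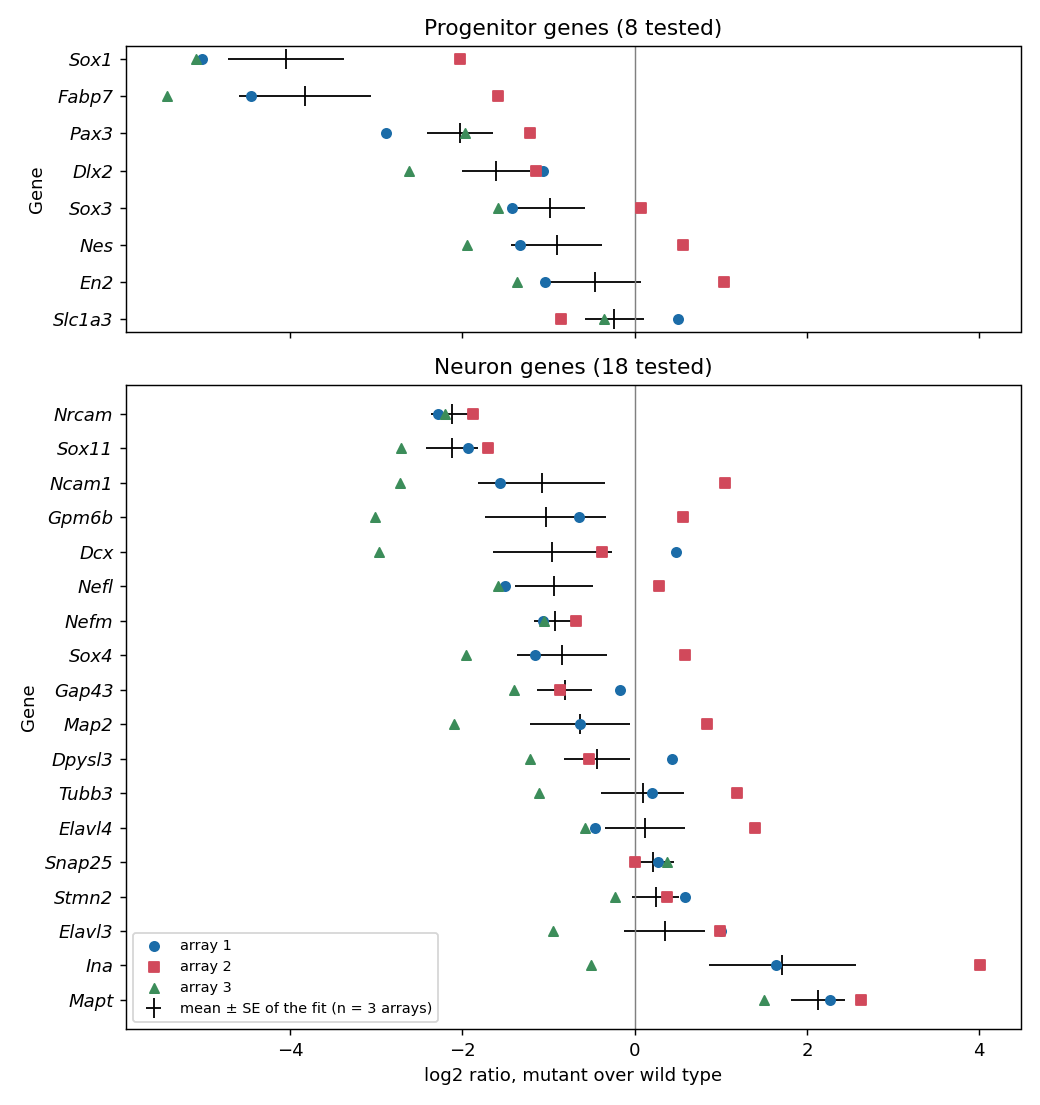
Log2 ratio of mutant over wild type (horizontal axis) for the 8 progenitor and 18 neuron genes that could be tested. Coloured points are the 3 arrays, and the black tick and bar are the mean and its standard error from the fit. The progenitor means all lie below 0, from −4.04 for Sox1 to −0.24 for Slc1a3, while the neuron means run from −2.12 for Nrcam to 2.13 for Mapt.

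The start regions of 3 of the genes with low ratios, and of Tubb3, a neuron gene with a mean ratio near 0 but ratios of both signs, are shown for reference. They are the 250 bases before the transcription start in RefSeq (GRCm38.p6), each read 5′ to 3′ on the gene's own strand. Capitals mark the motifs searched, on both strands: ACAATG (reverse CATTGT), the core bound by SOX proteins, CAGCTG and CATCTG (reverse CAGATG), E-boxes bound by proneural factors, ATGCAAAT (reverse ATTTGCAT), the octamer of POU factors, and TTCAGCACC (reverse GGTGCTGAA), the left part of the RE1 element read by the repressor REST.
Sox1 chr8:12395269-12395518 (+): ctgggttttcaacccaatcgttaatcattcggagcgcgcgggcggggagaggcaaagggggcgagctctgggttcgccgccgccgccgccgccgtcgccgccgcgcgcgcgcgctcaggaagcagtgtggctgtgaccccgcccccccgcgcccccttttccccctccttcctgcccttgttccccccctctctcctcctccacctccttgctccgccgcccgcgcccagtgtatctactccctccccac
Fabp7 chr10:57784673-57784922 (+): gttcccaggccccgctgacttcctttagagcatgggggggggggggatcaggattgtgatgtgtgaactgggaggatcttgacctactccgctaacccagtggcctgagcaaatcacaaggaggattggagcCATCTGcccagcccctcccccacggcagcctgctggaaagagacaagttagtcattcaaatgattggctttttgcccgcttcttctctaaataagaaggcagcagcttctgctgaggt
Sox11 chr12:27342719-27342968 (-): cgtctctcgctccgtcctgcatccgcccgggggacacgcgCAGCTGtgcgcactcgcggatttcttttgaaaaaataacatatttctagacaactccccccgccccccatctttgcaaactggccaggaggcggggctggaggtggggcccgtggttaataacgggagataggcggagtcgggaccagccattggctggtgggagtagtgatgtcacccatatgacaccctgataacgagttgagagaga
Tubb3 chr8:123411303-123411552 (+): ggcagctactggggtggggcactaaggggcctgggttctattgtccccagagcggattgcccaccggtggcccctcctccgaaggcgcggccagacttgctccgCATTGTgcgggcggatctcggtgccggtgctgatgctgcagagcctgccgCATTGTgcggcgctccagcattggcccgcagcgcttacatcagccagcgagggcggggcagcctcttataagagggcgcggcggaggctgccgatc
The Sox1 window held none of these letters, Fabp7 had 1 CATCTG starting 118 bases before the transcription start, Sox11 had 1 CAGCTG at 210 bases and Tubb3 had 2 SOX cores, at 146 and 96 bases. RefSeq windows existed for 29 of the 40 members, as 37 entries. The SOX core was in 4 of the 37 (10.81%) and in 10.69% of all 32851 windows of the same length. CAGCTG was in 8 (21.62%, against 13.001%), CATCTG in 6 (16.2%, against 14.4%), the octamer in 2 (5.41%, against 1.60%) and the RE1 part in 0 (against 0.301%). Elavl4 has 4 of the 37 entries, some of which overlap, and supplies 2 of the 8 and 3 of the 6, so the E-boxes lie in 7 and 4 different genes. The median number of CpG pairs in a window was 13 for members and 6 for all genes. A match describes these letters and shows no binding.

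Among the progenitor factors, Sox1 had the largest difference of the 26 measured members. Sox1 is a SoxB1 factor that is among the first genes switched on in neural ectoderm. Its probe gave normalized intensities of 7275, 1045 and 10160 in the wild type samples of arrays 1, 2 and 3 and of 225, 256 and 298 in the mutant samples. The mutant samples lay close together, all below the lowest wild type sample, and the wild type sample of array 2 was well below the other wild type samples. The log2 ratio was −4.04 ± 0.68 (SE, n = 3 arrays, limma adjusted p = 0.0625), with −5.02, −2.03 and −5.09 on the single arrays, a 16.5-fold lower mean level in the mutant. The size depended on the processing, with a mean log2 ratio of −2.49 in the authors' deposited table and −5.05 without array 2. Sox3, the other SoxB1 factor among the members, had intensities of 1230, 495 and 3308 in wild type and 458, 522 and 1104 in the mutant. These overlapped, because the wild type sample of array 2 was as low as the mutant samples. The log2 ratios of Sox3 were −1.43, 0.08 and −1.58 (mean −0.98, limma adjusted p = 0.239).

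Of the regional factors, 3 could be tested, and none passed. Pax3, a paired-box factor of the dorsal neural tube and neural crest, had intensities of 1812, 326 and 404 in wild type and 244, 141 and 103 in the mutant, with no overlap, and was well above background on 2 of 3 mutant arrays. Its log2 ratio was −2.03 ± 0.38 (SE, n = 3 arrays, limma adjusted p = 0.072). Dlx2, a homeodomain factor of the ventral forebrain, had 202, 219 and 573 in wild type and 96.9, 98.9 and 92.9 in the mutant, where it was well above background on 1 of 3 arrays, so its log2 ratio of −1.61 (limma adjusted p = 0.107) rests on mutant values near background. En2, a homeodomain factor of the midbrain and hindbrain border, had 1059, 123 and 846 in wild type and 515, 253 and 327 in the mutant. Its ratios of −1.04, 1.04 and −1.37 changed sign on array 2, and the genotypes overlapped.

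Of the proteins that mark progenitor cells and glia, Fabp7 came next to Sox1. Fabp7 is the brain lipid-binding protein of radial glia. Its intensities were 3101, 248 and 13187 in wild type and 141, 82.3 and 306 in the mutant. The mutant sample of array 3 exceeded the wild type sample of array 2, so the genotypes overlapped although each array's own ratio was below 0 (−4.46, −1.59 and −5.43). The mean was −3.83 ± 0.76 (SE, n = 3 arrays, limma adjusted p = 0.076). The mutant was well above background on 2 of 3 arrays, so the size of this difference rests in part on a mutant value near background, and it ranged from −5.46 with Agilent's processed signals to −2.27 in the authors' deposited table. Nes, the gene of the intermediate filament nestin, had 900, 262 and 1809 in wild type and 358, 387 and 470 in the mutant. The mutant values were nearly level, and the wild type ones spread to both sides of them. Slc1a3, a glutamate transporter of radial glia and astrocytes, had 745, 1166 and 1448 in wild type and 1058, 644 and 1128 in the mutant, and a log2 ratio of −0.24 (limma adjusted p = 0.712). It was the member of this group whose genotypes were nearest to each other.

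**Figure D2:**
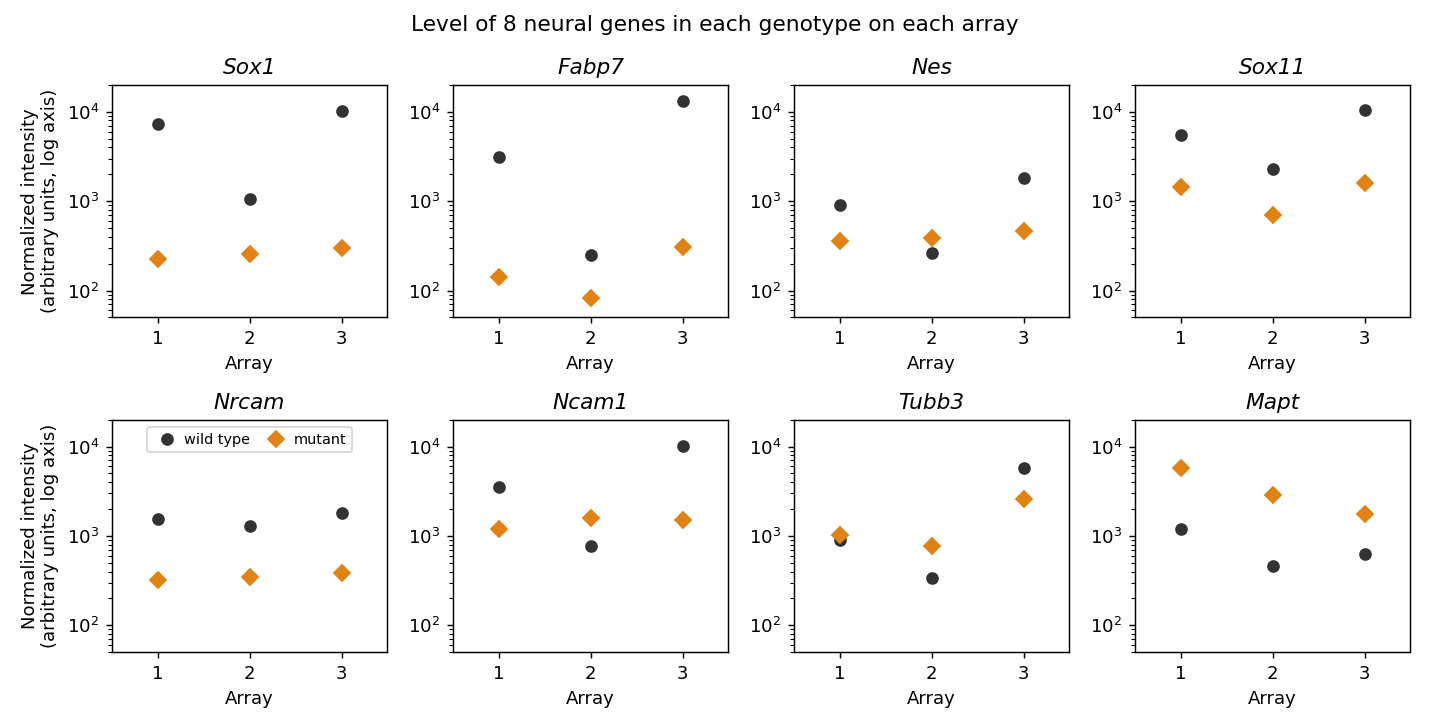
Normalized intensity on a log axis (vertical) of 8 genes on arrays 1 to 3 (horizontal), with 1 wild type and 1 mutant sample on each array. The mutant levels of Sox1, Nes, Nrcam and Ncam1 vary little between arrays, whereas the wild type sample of array 2 is the lowest wild type sample in all 8 panels; Mapt is higher in the mutant on each array.

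Among the factors that commit cells to a neuronal fate, the SoxC gene Sox11, which acts in new neurons, was lower in all mutant samples. Its intensities were 5479, 2268 and 10607 in wild type and 1433, 695 and 1612 in the mutant, with no overlap. The log2 ratio was −2.12 ± 0.30 (SE, n = 3 arrays, limma adjusted p = 0.056). A second measured probe of Sox11 gave −2.29. Sox4, the other SoxC member, had 10185, 5035 and 13207 in wild type and 4559, 7579 and 3393 in the mutant on its brightest probe, with ratios of −1.16, 0.59 and −1.96. Its further measured probes gave means of 0.07 and −0.26, so the probes of Sox4 disagreed.

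The proneural genes could not be tested. Neurog2, the neurogenin that starts neuron formation in much of the neural tube, was well above background on 2 of 3 wild type arrays and on 0 of 3 mutant arrays. Its intensities were 192, 83.6 and 487 in wild type and 66.5, 84.8 and 93.9 in the mutant. From the means over 3 arrays, a lower bound of 2.04-fold higher in wild type follows. That bound sets the wild type mean against the higher of the mutant signal and the dimmest signal still above background, on each array. It has no measure of spread and takes wild type signals near background as they stand. On array 2 the wild type sample did not exceed its mutant partner. Neurog1 was above background on 2 wild type and 0 mutant arrays, but the same bound was 0.978-fold, so it gave no difference. Neurod1, a factor of differentiating neurons, was above background on 2 arrays of each genotype, and Neurod4 on none.

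Neuron genes of the cytoskeleton and of axon growth formed the largest group, with 10 of 11 measured, and spread to both sides of 0. Their median log2 ratio was −0.53, with 6 of the 10 means below 0 and 4 above. Tubb3, the neuron-specific tubulin, had intensities of 891, 337 and 5686 in wild type and 1027, 769 and 2624 in the mutant. Its ratios of 0.20, 1.19 and −1.12 took a different sign on array 3, and the mean was 0.09 (limma adjusted p = 0.929). Dcx, the microtubule protein doublecortin of migrating neurons, had 597, 229 and 1265 in wild type and 833, 176 and 162 in the mutant. Its mean ratio of −0.95 came mainly from array 3 (−2.96), and without that array it was 0.050. The mutant samples were well above background on 2 of 3 arrays.

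The neurofilament genes were lower in the mutant on arrays 1 and 3. Nefl, the light subunit, had 2554, 466 and 2574 in wild type and 897, 568 and 859 in the mutant, and Nefm, the medium subunit, 260, 158 and 273 in wild type and 125, 98.5 and 132 in the mutant. Nefm, well above background on 2 of 3 mutant arrays, did not overlap between genotypes and Nefl did, its ratio on array 2 being 0.28. The limma adjusted p was 0.292 for Nefl (mean −0.94) and 0.118 for Nefm (mean −0.93).

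Gap43, a protein of growth cones, had intensities of 4970, 1909 and 8045 in wild type and 4414, 1044 and 3054 in the mutant. Its ratios of −0.17, −0.87 and −1.40 were below 0 on each array, but both genotypes were lowest on array 2 and overlapped. Map2, the microtubule protein of dendrites, had 379, 97.1 and 1141 in wild type and 244, 174 and 267 in the mutant, and ratios of −0.64, 0.84 and −2.10. Dpysl3, which acts in axon outgrowth, had 2593, 1051 and 3162 in wild type and 3498, 728 and 1362 in the mutant, and ratios of 0.43, −0.53 and −1.22. Stmn2, a stathmin of growing axons, had 2483, 1546 and 3230 in wild type and 3717, 2000.2 and 2758 in the mutant, and was among the neuron genes with the closest genotypes (0.58, 0.37 and −0.23). None of these 4 passed the test (limma adjusted p from 0.224 for Gap43 to 0.640 for Stmn2).

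Mapt, the gene of the microtubule protein tau, was the one member with all mutant samples above all wild type samples. Its brightest probe gave 1189, 463 and 623 in wild type and 5714, 2853 and 1763 in the mutant. The log2 ratio was 2.13 ± 0.31 (SE, n = 3 arrays, limma adjusted p = 0.056), with 2.26 and 2.62 on arrays 1 and 2 and a smaller positive value on array 3, a 4.38-fold higher mean level in the mutant. The other measured probes gave 1.86 and 1.29, and each of the 3 probes was above 0 on every array. Ina, the neurofilament-related protein internexin, had 1966, 274 and 8004 in wild type and 6130, 4403 and 5654 in the mutant. The mutant samples were nearly level while the wild type samples ranged widely, so the mean of 1.72 had a standard error of 0.85 and an adjusted p of 0.307 with limma. The second probe of Ina was highest on other arrays, with 2.96, −0.32 and 1.59 against 1.64, 4.01 and −0.50 for the brightest.

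The RNA-binding proteins of young neurons were near 0 on average. Elavl3 had intensities of 464, 275 and 1088 in wild type and 931, 547 and 564 in the mutant, so its ratio was above 0 on arrays 1 and 2 and below it on array 3 (1.01, 0.99 and −0.95, mean 0.35). Elavl4 had 1379, 186 and 627 in wild type and 1002.4, 488 and 419 in the mutant, with array 2 the one above 0 (−0.46, 1.39 and −0.58, mean 0.12). The limma adjusted p was 0.693 for Elavl3 and 0.903 for Elavl4. For Elavl4 a second measured probe gave −1.58, so the direction depends on the probe.

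Of the membrane and synapse proteins, Nrcam had the smallest adjusted p of all members. Nrcam is an adhesion molecule of axons. Its intensities were 1560, 1283 and 1789 in wild type and 319, 350 and 388 in the mutant, both tight and far apart. The log2 ratio was −2.12 ± 0.24 (SE, n = 3 arrays, limma adjusted p = 0.0502), 4.35-fold lower in the mutant. Ncam1, the neural cell adhesion molecule, had 3568, 772 and 10054 in wild type and 1205, 1597 and 1526 in the mutant. Its ratios of −1.57, 1.05 and −2.72 show how the wild type sample of array 2 alone lay below its mutant partner.

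Gpm6b, a membrane glycoprotein of neurons and glia, showed the same signs array by array, with 3493, 933 and 15248 in wild type, 2232, 1373 and 1884 in the mutant and ratios of −0.65, 0.56 and −3.02. Snap25, a protein of synaptic vesicle fusion, had 173, 522 and 874 in wild type and 209, 525 and 1135 in the mutant. The pair on each array was close (0.27, 0.008 and 0.38), while the level differed between arrays in both genotypes alike.

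The probes of Sox1, Mapt and Elavl4, which decide how far a gene's value can be read, are shown by their first 30 of 60 bases, with positions on mm9 as the files give them. No exon or UTR annotation of that build was used.
Sox1, measured chr8:12399496-12399555 (+): ttcaagaatgacgcccactgctttctgatg
Sox1, too dim chr8:12397503-12397562 (+): cgtcaacggcacggtgcccctgacgcacat
Mapt, brightest chr11:104189496-104189555 (+): ttgtgatcaggctcccagggcagtcaataa
Mapt, middle chr11:104189430-104189489 (+): atggtggactcaccacagcttgccacacta
Mapt, dimmest chr11:104193241-104193300 (+): atgatttctttggtgattttgagggtgggg
Elavl4, brightest chr4:109877455-109877514 (-): gggaagaagcatattactgtgtccttctgt
Elavl4, second chr4:109878558-109878617 (-): ctttaccaccttccttgaaggtgggtcttt
The Sox1 value rests on 1 probe, since the other, with a GC content of 73.3% against 43.3%, was well above background on 2 wild type and 0 mutant arrays and had intensities of 75.8 to 104 throughout. Of 6 members with several measured probes, Sox11, Mapt and Ina had means of 1 sign, and Sox4, Elavl4 and Dpysl3 did not. The second probe of Dpysl3 gave 0.71 against −0.44.

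**Figure D3:**
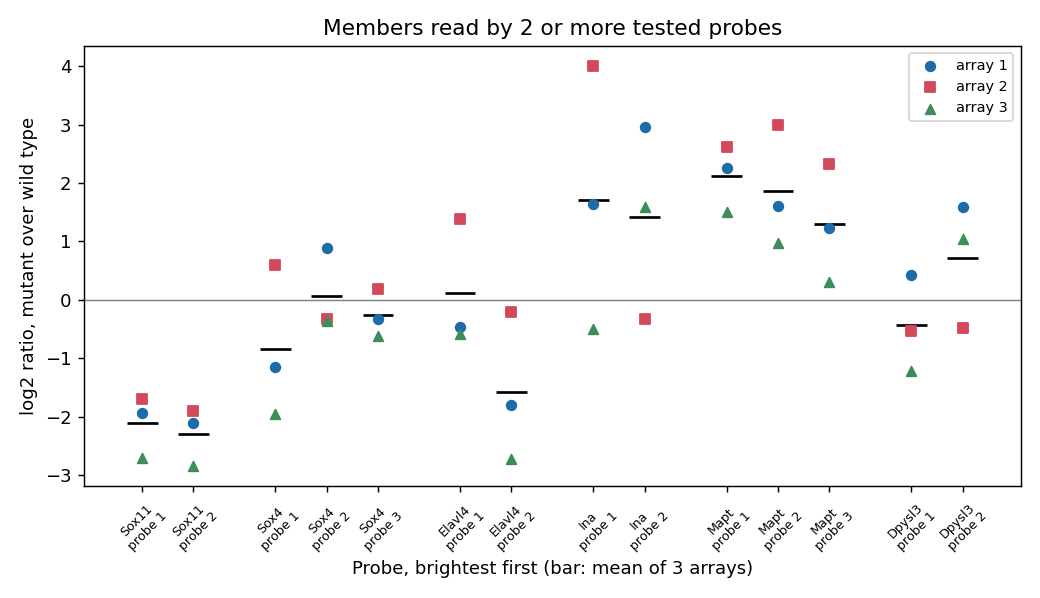
Log2 ratio of mutant over wild type (vertical axis) for each measured probe of the 6 members with 2 or more, with points for the 3 arrays and a bar at their mean. The probes of Sox11 (−2.12 and −2.29) and Mapt (2.13, 1.86 and 1.29) lie on 1 side of 0, whereas those of Elavl4 (0.12 and −1.58) and Dpysl3 (−0.44 and 0.71) do not.

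The 14 members that could not be tested were 7 progenitor genes (En1, Gbx2, Gfap, Nkx2-2, Olig2, Pax6 and Pax7) and 7 neuron genes (Gpm6a, Neurod1, Neurod4, Neurog1, Neurog2, Stmn3 and Syt1). Apart from Neurod4, which was above background on no array, the wild type was above background on more arrays than the mutant for 8 and on as many for 5, and the mutant on more for 0. Over all 8486 genes that were detected but not tested, these shares were 43.8%, 38.9% and 17.4%. Pax6, a factor of forebrain and eye progenitors, had intensities of 401, 147 and 1220 in wild type and 81.3, 116 and 192 in the mutant on its brighter probe, above background on 2 wild type and 1 mutant arrays. Gpm6a, a neuronal membrane glycoprotein, had 267, 134 and 826 in wild type and 93.6, 96.5 and 130 in the mutant, and Stmn3, a neuronal stathmin, 227, 146 and 713 against 90.8, 123 and 158. In these 3 genes each wild type sample exceeded its mutant partner. Gbx2, a factor of the anterior hindbrain, went the other way, with 189, 96.2 and 124 in wild type and 276, 159 and 141 in the mutant. Syt1, the calcium sensor of synaptic vesicles, lay at 132 to 276 and Nkx2-2, of ventral progenitors, at 110 to 247 on its brighter probe, with overlapping genotypes. Gfap, the filament of astrocytes, lay at 81.2 to 103 in every sample on its brightest probe, and Olig2, of motor neuron and oligodendrocyte progenitors, at 71.4 to 184. These levels allow no statement on genotype.

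Across the members the range was mostly wider in the wild type samples. The range over 3 samples had a median of 2.46 log2 units in wild type and 0.96 in the mutant, against 0.84 and 0.90 over all tested genes. The wild type range was the larger for 22 of 26 members (84.6%, all genes 45.3%). The progenitor medians were 2.76 in wild type and 0.92 in the mutant, and the neuron medians 2.28 and 1.03. The widest was Fabp7, with 5.73 in wild type and 1.89 in the mutant, and the narrowest Nrcam in wild type, with 0.48. Some ranges lie in part near background, such as the mutant range of Dlx2 (0.09, from 92.9 to 98.9). Pax3, Fabp7, Nefm and Dcx also were not well above background on every mutant array, and Map2 and En2 not on every wild type array. The part of this in the ranges was not tested.

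The wild type sample of array 2 was the lowest of the 3 for 23 of 26 members (88.5%, all genes 36.4%), all but Dlx2, Slc1a3 and Snap25. The mutant sample of array 2 was the lowest mutant sample for 14 of 26 members, against 5529 of all 15428 genes. On arrays 1 and 3 both, 7 of 8 progenitor genes and 10 of 18 neuron genes had ratios below 0 (all genes 41.0%). On array 2, 3 of those 7 and 6 of those 10 were above 0, a share near that of all genes (44.8%). The wild type sample of array 2 was also the only wild type sample labelled with Cy3. Its spots were the least often well above background of the wild type samples (48.5%, against 74.4% and 63.3%). The sample, its dye, its detection and the array itself cannot be told apart here. The 3 mutant intensities were all below the 3 wild type ones for 6 members (Sox1, Pax3, Dlx2, Sox11, Nefm and Nrcam), 23.1% against 10.3% of all genes. Of these 6, Pax3, Dlx2 and Nefm were well above background throughout in wild type samples only, so this count rests in part on how genes entered. The mutant intensities were all above the wild type ones for 1 member (Mapt), 3.85% against 11% of all genes.

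**Figure D4:**
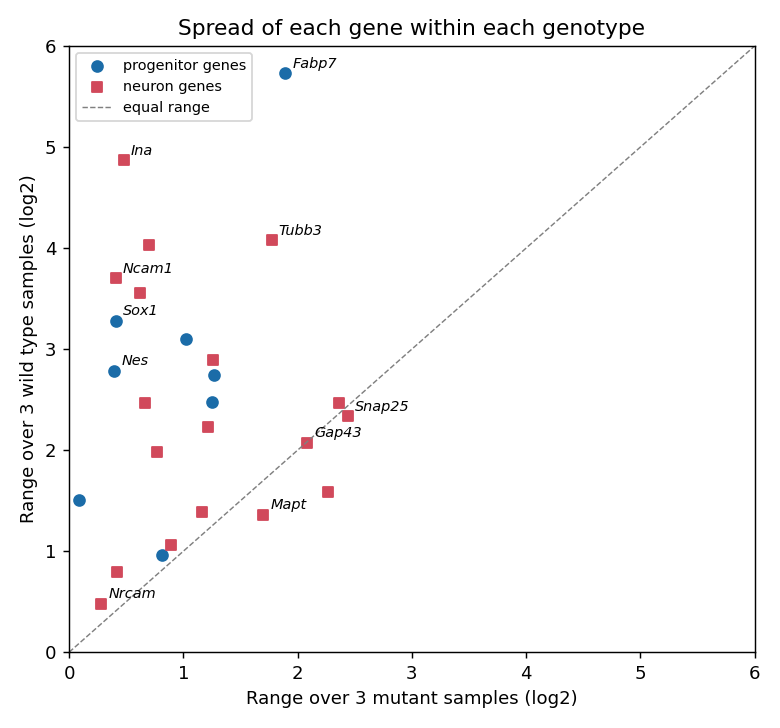
Range over the 3 samples, in log2 units of normalized intensity, in the mutant (horizontal) and in wild type (vertical) for each of the 26 measured members. Of these, 22 lie above the dashed line of equal range, with Fabp7 (5.73 in wild type, 1.89 in the mutant) the highest and Nrcam the nearest to the origin.

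Array by array, the progenitor median was −1.38 on array 1, nearer 0 on array 2 and −1.96 on array 3. The neuron median was −0.32, 0.46 and −1.31 on arrays 1, 2 and 3. The neuron median thus took the other sign on array 2, and without array 3 the mean ratios of the neuron genes had a median of 0.003. Without array 2, where the fit has 1 residual degree of freedom and genotype and dye cannot be told apart, limma called 15 of the 26 members lower and 1, Mapt, higher. That fit called 21.7% of all genes lower and 25.7% higher. The 15 were Sox1, Fabp7, Pax3, Sox3, Nes, En2 and Dlx2 of the progenitor genes and Nrcam, Sox11, Nefl, Ncam1, Sox4, Nefm, Map2 and Gpm6b of the neuron genes. With dye as a term in the model, limma called 9 lower (Sox1, Fabp7, Pax3, Dlx2, Sox3, Nrcam, Sox11, Nefl and Nefm) and 2 higher (Mapt and Ina), beside 14.9% and 15.9% of all genes. Array 2 is the only array of its dye orientation, so this fit also has 1 residual degree of freedom. Its residual spread comes from arrays 1 and 3 alone, and its calls are not separate support. Sox3 and Nefl were called although their ratios on array 2 were above 0.

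**Figure D5:**
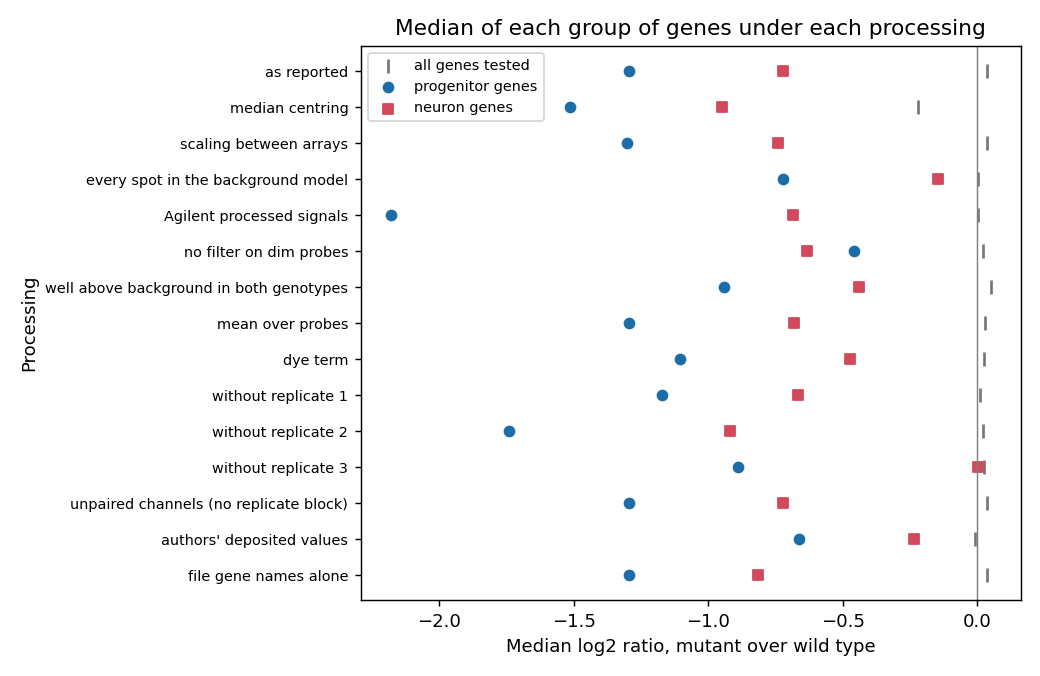
Median log2 ratio of mutant over wild type (horizontal axis) of the progenitor genes, the neuron genes and all tested genes under each processing (vertical axis). Progenitor medians run from −2.18 to −0.46 and neuron medians from −0.95 to 0.003, and the progenitor median is the lower one except when dim probes are kept (−0.46 against −0.63).

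Other genes of the same processes were read from lists chosen with earlier results of these data known, so their counts are not separate support. Of 30 further progenitor genes, 19 could be tested, 0 were called by limma, and 13 were below 0 and 3 above 0 on all 3 arrays (all genes 22.7% and 21.7%), with a median of −1.87. Of these 19, 8 were well above background throughout in wild type samples only, among them 7 of the 13, so the counts and the median rest in part on how genes entered. Unadjusted, limma gave the same 13 a p under 0.05 as lower and 2 as higher, 68.4% and 10.5%, beside 11.3% and 11.4% of all genes. The 3 lower ones with the smallest p were Six3, Dbx1 and Rax. Six3 and Rax, homeodomain factors of the forebrain and eye field, were at −2.92 and −1.75, but well above background on 1 and 2 of 3 mutant arrays. Dbx1, of interneuron progenitors, was well above background on no mutant array. The bound described for Neurog2 gave 7.53-fold lower in the mutant, from the means and with no measure of spread. The ratios of Dbx1 were −3.66, −2.12 and −3.71, so array 2 showed a smaller difference. In the other direction were Sox2 (1.05), the SoxB1 factor that pluripotent cells also use, Sox5 (0.75) and Otx2 (0.41), which early epiblast cells share. Sox2 thus stood opposite to its relatives Sox1 and Sox3, with ratios of 1.29, 1.09 and 0.77.

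Of 42 further neuron genes, 27 could be tested and 0 were called, with a median of −0.26. On all 3 arrays 8 were below 0 and 4 above (29.6% and 14.8%, all genes 22.7% and 21.7%). Unadjusted, limma gave the same 8 as lower and 1 as higher (29.6% and 3.70%, all genes 11.3% and 11.4%). Of these 27, 3 were well above background throughout in wild type samples only, all among the 8. The lower genes with the smallest p were Dpysl2 (−1.89), a relative of Dpysl3, the granule protein gene Scg2 (−1.77, well above background on 1 of 3 mutant arrays) and the endosomal protein gene Nsg1 (−2.16). On the higher side were Gad1 (1.58), the enzyme that makes GABA, Pou4f1 (0.79), a factor of sensory neurons, and Syn1 (0.67), a synaptic vesicle protein. Rest, the repressor of neuronal genes outside neurons, had ratios of 0.74, 1.16 and 0.92 (mean 0.94, limma adjusted p = 0.115). The others of its 5-gene list were Rcor2 (0.23), Hdac2 (0.13), Rcor1 (−0.53) and Ehmt2 (−0.67), and of the 5, 0 were called and 1 had an unadjusted p under 0.05. Of 3 antagonists that favour neural induction, Fst alone was measured, at −2.22 with an adjusted p of 0.0505 from limma, and Nog and Chrd were too dim.

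Markers of other cells were read in the same samples. All 8 pluripotency markers had mean ratios above 0, 6 of them on each array, and 2 were called higher by limma (Zfp42 and Dppa5a). Nanog was near 0 (0.08), and Nanog and Tdgf1 were below 0 on array 2. The summed intensity of the 8 was 195976 to 438576 in the mutant against 43550 to 79299 in wild type. All 9 markers of parietal and visceral endoderm were below 0 on each array, none called, with sums of 14218 to 146257 against 243354 to 651581. Among neural crest markers, Foxd3 was at 3.01, Snai2 at −1.67 and Tfap2a at −1.73, while Sox10 was above background on 0 mutant and 2 wild type arrays and Erbb3 on none. Of 8 skeletal muscle markers 2 were tested, with sums of 255 to 529 against 256 to 858, and Myod1, Myog and Myf5 were above background on no array. Of 5 markers of endocrine pancreas, whose cells share many neuron genes, 2 were tested, with sums of 413 to 791 against 353 to 607, and Gcg, Ins2 and Pdx1 did not pass. The part of these cells in the neural values was not tested.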

How the data were processed

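Each of 3 two-colour Agilent arrays, on 1 slide, held 1 wild type and 1 Dido3deltaCT sample. Per the file headers, the deposited files come from Feature Extraction 10.7.3.1 and give mean and background intensity per spot, not normalized, with probe positions on mm9. The authors' deposited table holds log2 ratios, used as an alternative; centring within arrays and the settings behind it are not given in the sources used here, and its columns 1 and 3 correlate better with arrays 3 and 1 (0.916 and 0.983) than with their own (0.771 and 0.842), which leaves the mean unaffected. Column 2 correlates at 0.987 with array 2, but only at 0.132 and 0.147 with arrays 1 and 3. Columns 1 and 3 correlate with array 2 at only 0.0992 and 0.122. Array 2 thus shared little with the other arrays over all non-control spots, not only in the members. Column medians are −0.04, 0.01 and −0.01.

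Intensities were corrected with normexp (offset 50) and loess-normalized in R 4.3.3 with limma 3.58.1, with 1377 control spots at weight 0. Outlier-flagged spots (317, 364 and 438 on the 3 arrays) were left out, as were 7 spots of array 3 with a background above 10 times the median, which took the median in the background model. Intensities of single samples are these ratios and means after Aquantile scaling. Spots of a probe were averaged, and 26761 of 39429 probes (67.9%) were named through accessions of assembly GRCm38.p6, 2878 with a new symbol. A probe was kept if, in 1 genotype or both, it was well above background on each array (19142), and the brightest stood for its gene. Mean ratios were set against 0 by lmFit with eBayes (2 residual and 3.04 prior degrees of freedom), two-sided, adjusted over all 15428 genes, after tests on simulated data. Each array pairs its samples. Well above background were 62.3%, 62.5% and 46.5% of spots in the mutant on arrays 1, 2 and 3, and 74.4%, 48.5% and 63.3% in wild type.

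The members, gene lists and alternatives were chosen with earlier results of these data known. All members are named or counted; of further pathway genes, the 3 with the smallest p in each direction are named, and Rest. Some marker genes of other cells are not reported here. Figures used matplotlib 3.10.9.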

Additional observations from a re-analysis of the deposited data

How the results depend on the processing

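Under every alternative 0 to 2 members were called lower, except with a dye term (9) and without replicate 2 (15). In both of these fits the residual spread came from replicates 1 and 3 alone. The count was 1 with scaling between arrays (Nrcam), 2 with Agilent's processed signals (Fabp7 and Nrcam), 1 with the mean over probes (Nrcam), 2 in the unpaired fit without the replicate block (Nrcam and Sox1) and 0 to 15 when leaving out 1 replicate, against 0 as reported; unadjusted, 7 were lower and 1 higher. Over all 15428 genes, 14 were called lower as reported, and 0 with every spot in the background model or in the authors' values. The number was 50 with scaling between arrays, 140 with processed signals, 36 with the mean over probes and 96 in the unpaired fit. It was 2299 with the dye term and 3343 without replicate 2. Members called higher numbered 2 with the dye term and 0 to 1 when leaving out 1 replicate. The progenitor median of −1.29 was −0.72 with every spot in the background model, −2.18 with processed signals, −0.46 with dim probes kept and −0.66 in the authors' deposited values. The neuron median was 0.003 without replicate 3. Median centring moved the median of all genes from 0.03 to −0.22; with it Elavl4 (−0.20), Snap25 (−0.047), Stmn2 (−0.10) and Tubb3 (−0.25) turned below 0. The mean over probes turned Dpysl3 (0.14) and Elavl4 (−0.73). Leaving out 1 replicate gave −1.67 to 0.050 for Dcx, −0.52 to 0.47 for Elavl4, −1.37 to 0.10 for Map2, −0.61 to 0.073 for Slc1a3 and −0.46 to 0.70 for Tubb3. Signal over background limits what can be read: 14 of 40 members were too dim. The cause of these shifts was not tested.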
